A study of Drosophila melanogaster with 62 samples.

Results

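The genes described here are 5 early zygotic genes of *Drosophila melanogaster*, *nullo*, *Sry-alpha*, *bnk*, *slam* and *halo*, taken from the 17510 genes of the count table by their FlyBase symbols. They were read in 62 RNA-seq libraries, each made from a single late-stage oocyte or a single embryo, with 4 replicates in each of 16 groups except the groups at nuclear cycle (NC) 13, which have 3. *brat*-mutant samples came from mothers with the deficiency Df(2L)TE37C-7 over *fs1*, an allele with an amino acid change in the NHL domain of BRAT, an RNA-binding repressor of translation. They cover oocytes and embryos of NC10, NC12, NC13, and of NC14 at an early point and at a later one. *brat* het samples came from mothers with either mutant allele over a wild-type chromosome, without a record of which allele for each library, and cover oocytes, NC10, NC12 and later NC14. *HisRFP* samples, of the genotype w; His2AvRFP(III) with wild-type *brat*, cover all 6 stages. Embryos were staged alive by the density of nuclei carrying the His2Av-RFP marker, which was also crossed into the *brat*-mutant and *brat* het embryos. The genotype named is that of the mother, no sample was pooled, and neither the sex of the embryos nor the number of mothers is given in the labels, so p-values measure the spread between single embryos.

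The early fly embryo divides its nuclei without dividing its cytoplasm. During the long interphase of NC14, membrane grows inwards between the nuclei at the cortex and closes each off as a cell, a step called cellularization. Much of its machinery is supplied by the mother, but a few genes must be transcribed by the embryo itself. *slam* (slow as molasses) is needed for growth of the membrane and sits at the furrow tip, *nullo* and *Sry-alpha* (serendipity alpha) keep the actin network of the furrow intact, *bnk* (bottleneck) holds back its constriction, and *halo* sets the direction in which lipid droplets travel along microtubules in the same period.

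Values are reads counted on a gene, given as CPM (the read count scaled to a library of fixed size) after correction of the library sizes for composition by TMM factors. Libraries held 4000899 to 41029921 counted reads, and those of NC13 and early NC14 (median 23816968.5) were deeper than the others (median 11177628). Follicle cell markers, chorion genes among them, summed to between 44.8 and 111 CPM in *brat*-mutant oocytes, between 17569 and 59870 CPM in *brat* het oocytes and between 1.86 and 30920 CPM in *HisRFP* oocytes. In embryos the highest sum was 125 CPM, in a *HisRFP* NC12 embryo. Transcripts of *brat* itself averaged 509.9 ± 26.8 CPM in *brat*-mutant oocytes, 675 ± 188 in *brat* het oocytes and 757 ± 195 in *HisRFP* oocytes (SD, n = 4 each). Since *fs1* changes the protein and leaves a transcript, a loss of *brat* reads could not be used as a check of the labels. In oocytes *brat* mutants differed from *HisRFP* by -0.60 on the log2 scale (adjusted p = 0.231, edgeR's quasi-likelihood test). At early NC14 *brat* transcripts averaged 990.0 ± 28.7 CPM in *brat*-mutant and 101 ± 5.65 CPM in *HisRFP* embryos. By the same test this was a difference of 3.26 (adjusted p = 2.4e-07). In whole embryos, fewer cells with a transcript and less transcript per cell cannot be told apart.

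Of the 5 genes, 4 could be measured. *Sry-alpha* (FBgn0003510, 3R:30039719-30043071 of the dm6 assembly, plus strand) had 0 reads in all 62 libraries. By Ensembl's annotation of that assembly, all of its 3300 exonic bases also belong to *Sry-beta* (FBgn0003511), which had 0 reads as well, whereas the neighbours *Sry-delta* and *janA*, which share no exonic base with it, had 99862 and 91719 reads over all libraries. Among 527 genes of the table with no exonic base of their own, 526 (99.8%) were at 0 in all libraries, against 867 of 16878 other genes (5.1%). Reads that overlap several genes were dropped in counting, so the 0 is not read here as absence of the *Sry-alpha* transcript. Whether the annotation used for counting holds the same overlap was not checked. *slam* (FBgn0043854, 2L:6372388-6377284, plus strand) has 2 or 3 exons and 4117 exonic bases. *nullo* (FBgn0004143, X:7049476-7050321, plus strand, 846 bases), *bnk* (FBgn0004389, 3R:31193362-31194389, plus strand, 1028 bases) and *halo* (FBgn0001174, 2L:1517533-1518148, minus strand, 616 bases) are genes of 1 exon. *nullo* lies within the span of *CG12541* and *bnk* within that of *mesh*, both on the opposite strand, and reads were counted without strand. Neither pair shares exonic bases, and *CG12541* and *mesh* had 617 and 4115 reads in all, against 96491 for *nullo* and 297153 for *bnk*.

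*slam* was the only measured gene of the group with a clear level in oocytes. It had 63.7, 127, 168 and 164 CPM in *brat*-mutant oocytes, 91.1, 145, 83.1 and 103 CPM in *brat* het oocytes and 92.0, 60.2, 247 and 156 CPM in *HisRFP* oocytes. The 3 groups overlapped throughout. At NC10 *slam* ranged over 247 to 314 CPM in *brat*-mutant, 191 to 287 in *brat* het and 187 to 281 in *HisRFP* embryos. At NC12 it had 466, 730.0, 412 and 538 CPM in *brat*-mutant embryos, 368, 653, 434 and 626 in *brat* het embryos and 441, 347, 805 and 497 in *HisRFP* embryos. No genotype stood apart at either stage. The NC13 values were 2760.0, 920.0 and 1165 CPM in *brat*-mutant embryos A, C and D and 961, 3073 and 990.1 CPM in *HisRFP* embryos A, C and D, with 1 embryo of each genotype about as high as the embryos of early NC14. Early NC14 embryos had 2621, 2303, 2812 and 3525 CPM in *brat* mutants and 2922, 2299.8, 4624 and 3605 CPM in *HisRFP*, and the ranges overlapped. At later NC14 *slam* reached 6144, 5384, 8684 and 5961 CPM in *brat*-mutant embryos, 8432, 11810.1, 6909.6 and 8592 CPM in *brat* het embryos and 9559, 12107, 10234 and 8316 CPM in *HisRFP* embryos. Of the *brat*-mutant embryos, 3 lay below every *HisRFP* embryo and below every *brat* het embryo, and embryo C lay among both.

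*nullo* was at the floor of the counts in oocytes, with 0, 1, 0 and 0 reads in *brat*-mutant, 3, 1, 0 and 0 in *brat* het and 0, 0, 0 and 2 in *HisRFP* oocytes, where 3 reads were taken as the limit that a count of 0 allows. It was first above that limit at NC10, with 0, 6.12, 2.27 and 9.13 CPM in *brat*-mutant embryos, 0.780, 6.98, 3.81 and 7.16 CPM in *brat* het embryos and 7.66, 3.0, 4.82 and 2.34 CPM in *HisRFP* embryos. *brat*-mutant embryo A had no read, and the groups overlapped otherwise. NC12 embryos had 50.3, 97.6, 56.8 and 134 CPM in *brat* mutants, 41.2, 149, 95.3 and 122 in *brat* hets and 49.7, 88.4, 188 and 49.9 in *HisRFP*, again overlapping. At NC13 the values were 250.4, 112 and 124 CPM in *brat*-mutant embryos A, C and D and 115, 397 and 200.2 CPM in *HisRFP* embryos A, C and D. Early NC14 embryos held the highest group means, with 336, 201, 531 and 333 CPM in *brat* mutants and 322, 222, 178 and 274 CPM in *HisRFP*. By later NC14 *nullo* was down to 9.0, 14.3, 8.59 and 5.86 CPM in *brat*-mutant embryos, 11.9, 33.2, 13.0 and 59.7 CPM in *brat* het embryos and 11.6, 61.8, 11.4 and 9.97 CPM in *HisRFP* embryos. The spread between embryos was wide: *brat* het embryos B and D and *HisRFP* embryo B lay above every *brat*-mutant embryo, and the other 2 *brat* het and 3 *HisRFP* embryos lay within the *brat*-mutant range.

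*bnk* had at most 3 reads in each *brat*-mutant oocyte, at most 12 in a *brat* het oocyte and at most 4 in a *HisRFP* oocyte. At NC10 it ranged over 0.150 to 6.62 CPM in *brat*-mutant, 2.80 to 9.88 in *brat* het and 2.14 to 11.9 in *HisRFP* embryos, with the lowest value again in *brat*-mutant embryo A. At NC12 *bnk* had 84.7, 186, 108 and 126 CPM in *brat*-mutant embryos, 80.4, 154, 95.9 and 159 in *brat* het embryos and 46.5, 78.2, 171 and 90.5 in *HisRFP* embryos. These overlapped, as did the NC13 values of 719, 210.4 and 334 CPM in *brat*-mutant embryos A, C and D and 248, 805 and 279 CPM in *HisRFP* embryos A, C and D. The early NC14 values, 799.6, 663, 1012 and 1018 CPM in *brat* mutants and 848, 607, 1050.4 and 806 CPM in *HisRFP*, also overlapped and had the smallest spread of its course relative to the mean. At later NC14 *bnk* had 385, 318, 507 and 606 CPM in *brat*-mutant embryos, 693, 1137, 450.5 and 964 CPM in *brat* het embryos and 428, 1118, 475 and 501 CPM in *HisRFP* embryos. The *brat*-mutant embryos overlapped both other genotypes, and *HisRFP* embryo B stood far above the other *HisRFP* embryos.

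*halo* had between 0 and 34 reads in an oocyte, and in NC10 embryos it was still near the floor, at 0.130 to 1.17 CPM in *brat*-mutant, 0.455 to 3.05 in *brat* het and 0.146 to 2.51 in *HisRFP* embryos. By NC12 it was present in every embryo, with 35.5, 84.2, 35.6 and 60.0 CPM in *brat* mutants, 27.4, 69.0, 41.4 and 62.2 in *brat* hets and 37.4, 37.2, 77.2 and 34.2 in *HisRFP*. The groups overlapped. NC13 gave 469.7, 89.2 and 142 CPM in *brat*-mutant embryos A, C and D and 123, 421 and 130.3 CPM in *HisRFP* embryos A, C and D. Early NC14 gave 386, 383, 419.6 and 466 CPM in *brat* mutants and 547, 374, 873 and 512 CPM in *HisRFP*, where 3 of the 4 *HisRFP* embryos were above all *brat*-mutant embryos. At later NC14 *halo* had 1072, 845, 1389 and 989 CPM in *brat*-mutant embryos, 1826, 1751, 1241 and 1646 CPM in *brat* het embryos and 1252, 1745, 1277 and 1398 CPM in *HisRFP* embryos. As with *slam*, 3 *brat*-mutant embryos were below every embryo of the other genotypes and embryo C was among them.

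**Figure D1:**
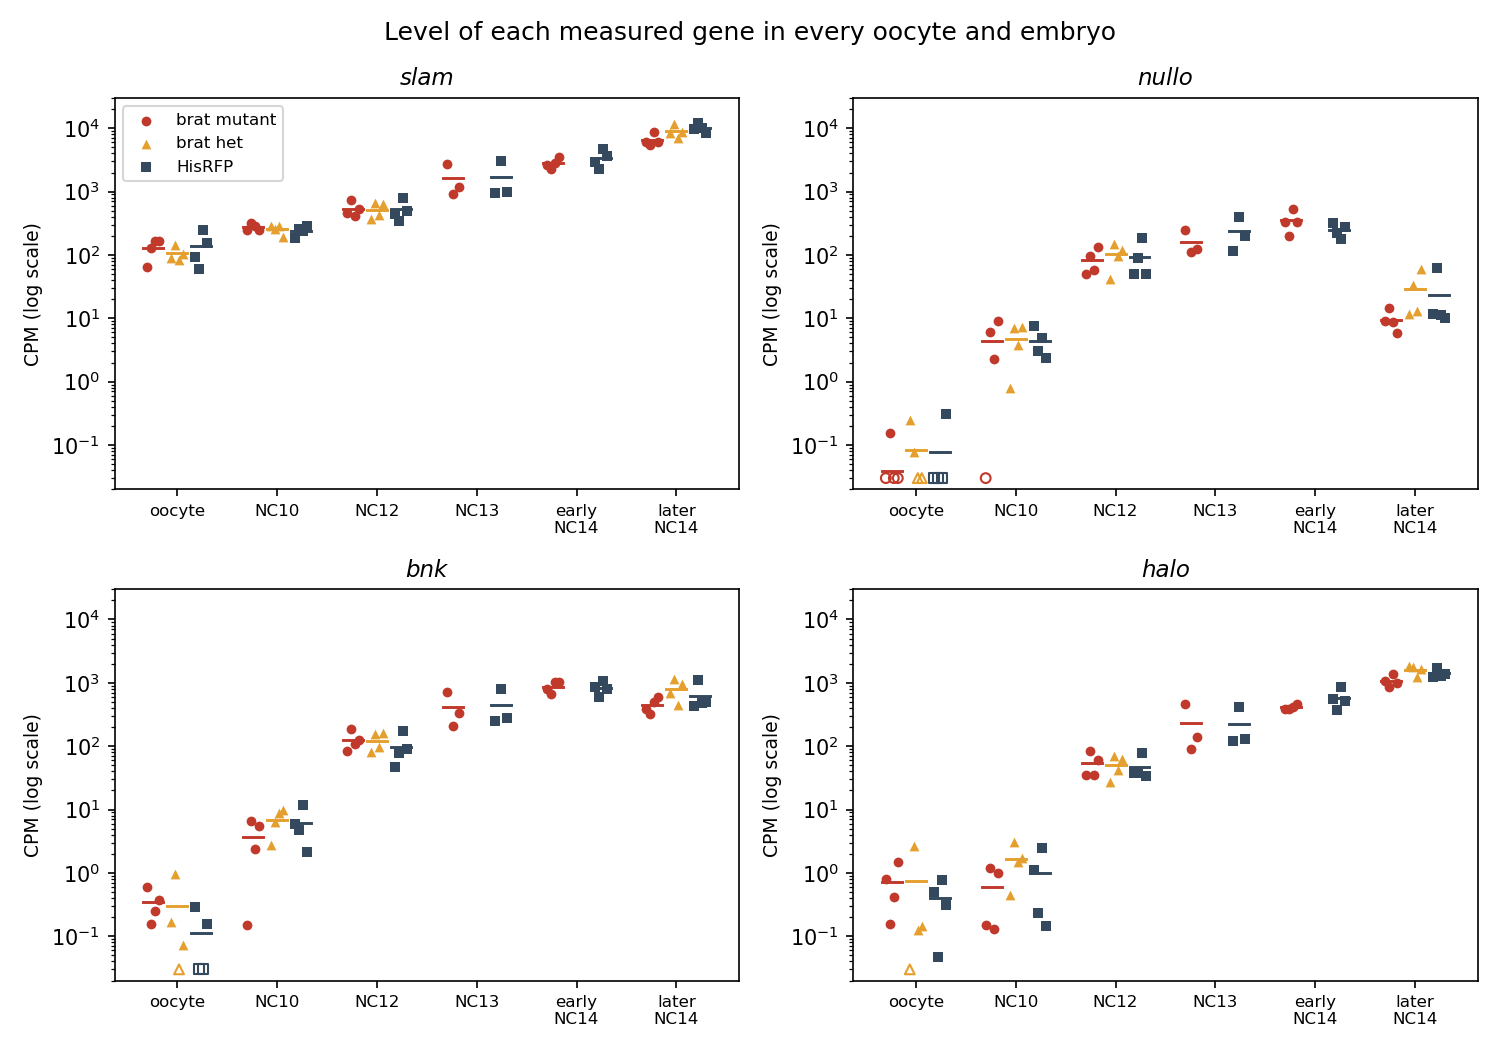
Level of *slam*, *nullo*, *bnk* and *halo* in every oocyte and embryo, in CPM on a log scale, by stage. Each point is 1 library, lines are group means, and open symbols at the bottom are libraries with 0 reads. *slam* is present from the oocyte on, the other 3 genes are near the floor in oocytes and clear in every embryo by NC12, and *nullo* alone falls to 61.8 CPM or less at later NC14.

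In *HisRFP* embryos the steps between successive stages were tested with edgeR's quasi-likelihood test, with p-values adjusted over all genes tested by the Benjamini-Hochberg method, and calls required an adjusted p below 0.05 together with a log2 fold change above 1 or below -1. Between NC10 and NC12 all 4 measured genes were called higher, where 14.9% of genes tested were called in either direction. The log2 fold change of NC12 over NC10 was 1.20 (standard error 0.25, adjusted p = 0.00737) for *slam*, 4.50 (standard error 0.58, adjusted p = 0.00117) for *nullo*, 4.04 (standard error 0.57, adjusted p = 0.00152) for *bnk* and 5.59 (standard error 0.67, adjusted p = 0.00112) for *halo*. Thus *slam*, already present in the oocyte, had the smallest estimate and *halo* the largest, but the genes were not tested against each other. The *halo* estimate rests on 11, 2, 37 and 3 reads in *HisRFP* NC10 embryos A to D. Without *HisRFP* NC12 embryo C the log2 fold change of *slam* was 0.90, below the fold threshold. Of 14 other early zygotic genes, among them *ftz*, *run* and *Kr*, 13 were called higher at the same step, with a list median of 4.38 beside 0.06 over all genes tested.

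Between NC12 and NC13, 3 of the 4 were called higher, with 22.4% of genes called. On the log2 scale the change was 1.67 (standard error 0.48, adjusted p = 0.0297) for *slam*, 2.19 (standard error 0.55, adjusted p = 0.0237) for *bnk* and 2.26 (standard error 0.52, adjusted p = 0.0222) for *halo*, whereas *nullo* did not pass at 1.33 (standard error 0.59, adjusted p = 0.0940). In this comparison same-lettered libraries deviated together (r of 0.23 to 0.53 in 3 pairs). The letters have no stated meaning, and whether so few pairs would do so by chance was not tested. With the replicate letter as a block in edgeR's fit *nullo* also passed, at 1.42 (adjusted p = 0.0242). Leaving out *HisRFP* NC13 embryo A, or NC12 embryo A, B or D, left no gene of the whole table called, the 4 members included, although 3206 to 3499 genes had an unadjusted p under 0.05 in these fits by edgeR. In these 4 fits the log2 fold changes were 1.51 to 1.95 for *slam*, 1.96 to 2.48 for *bnk* and 2.14 to 2.56 for *halo*, with adjusted p of 0.0531 to 0.0810. Leaving out NC12 embryo C added *nullo*, at 1.92 (adjusted p = 0.0276). Leaving out NC13 embryo C gave 0.89 for *slam*, which was then not called (adjusted p = 0.0587), and 1.43 and 1.44 for *bnk* and *halo*, which were. At this step 5 of the 14 other early zygotic genes were called higher, and 5 of 8 genes of lipid droplet transport, the process that *halo* directs, were called lower.

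Between NC13 and early NC14 none of the 4 was called, and neither was any other gene (0%), although 1800 of 7676 genes had an unadjusted p under 0.05 and DESeq2's Wald test called 395. The log2 fold changes were 1.02 (standard error 0.46, adjusted p = 0.219) for *slam*, 0.07 (standard error 0.39, adjusted p = 0.909) for *nullo*, 0.91 (standard error 0.42, adjusted p = 0.224) for *bnk* and 1.38 (standard error 0.50, adjusted p = 0.204) for *halo*. Without *HisRFP* NC13 embryo C, *slam*, *bnk* and *halo* were called, at 1.76, 1.63 and 2.17 (adjusted p of 0.0280 to 0.0298). With all embryos and the replicate letter as a block in edgeR's fit they were also called, at 1.36, 1.24 and 1.73 (adjusted p of 0.0264 to 0.0437). Same-lettered libraries did not all deviate together here (r of -0.27 to 0.42). With all 62 libraries in 1 edgeR fit *slam* was called, at 1.01 (adjusted p = 0.0446).

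Within NC14 the genes parted. Of the 4, *slam* and *halo* were called higher at later than at early NC14, at 1.73 (standard error 0.22, adjusted p = 0.000450) and 1.44 (standard error 0.25, adjusted p = 0.00162), *nullo* was called lower, at -3.24 (standard error 0.62, adjusted p = 0.00261), and *bnk* did not pass, at -0.24 (standard error 0.32, adjusted p = 0.559). In this comparison 34.3% of genes were called. Without *HisRFP* later NC14 embryo B, which had the highest *nullo* level of its group, the change of *nullo* was -4.36 and that of *bnk* -0.68, which passed the p threshold (adjusted p = 0.0197) but was under 1 log2 unit. Mean *nullo* at later NC14 was 2.69% of its early NC14 mean in *brat* mutants and 9.5% in *HisRFP*, and mean *bnk* 52.0% in *brat* mutants and 76.1% in *HisRFP*. Without *HisRFP* embryo B the *HisRFP* shares were 4.40% for *nullo* and 56.5% for *bnk*. Of the 14 other early zygotic genes, 9 were called higher at later NC14 in *HisRFP* and 1 was called lower, *sc*, at -4.28 (adjusted p = 0.000831).

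Levels of the genes relative to each other were compared per kilobase of exon. In NC12 *HisRFP* embryos the mean levels were 127 ± 48.2 CPM per kb for *slam*, 111 ± 77.2 for *nullo*, 94.0 ± 51.8 for *bnk* and 75.5 ± 33.3 for *halo* (SD, n = 4), so no neighbours in this order differed beyond their spread. At early NC14 *halo* (936 ± 343), *slam* (817 ± 242) and *bnk* (805 ± 177) were within their spread of each other and above *nullo* (295 ± 74.1). At later NC14 *slam* (2442 ± 384) and *halo* (2302 ± 369) lay within their spread of each other, *bnk* followed (613 ± 317), and *nullo* came last (28.0 ± 30.1). *brat*-mutant embryos had the same last places at later NC14, with 1743 ± 374 for *halo*, 1589 ± 356 for *slam*, 442 ± 124 for *bnk* and 11.2 ± 4.17 for *nullo*. Together the 4 genes took 0.00703% to 0.0174% of the reads of a *brat*-mutant oocyte and 0.00660% to 0.0233% of a *HisRFP* oocyte, and 0.628% to 1.03% of a later NC14 *brat*-mutant embryo, 0.924% to 1.43% of a *brat* het embryo and 1.04% to 1.41% of a *HisRFP* embryo.

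**Figure D2:**
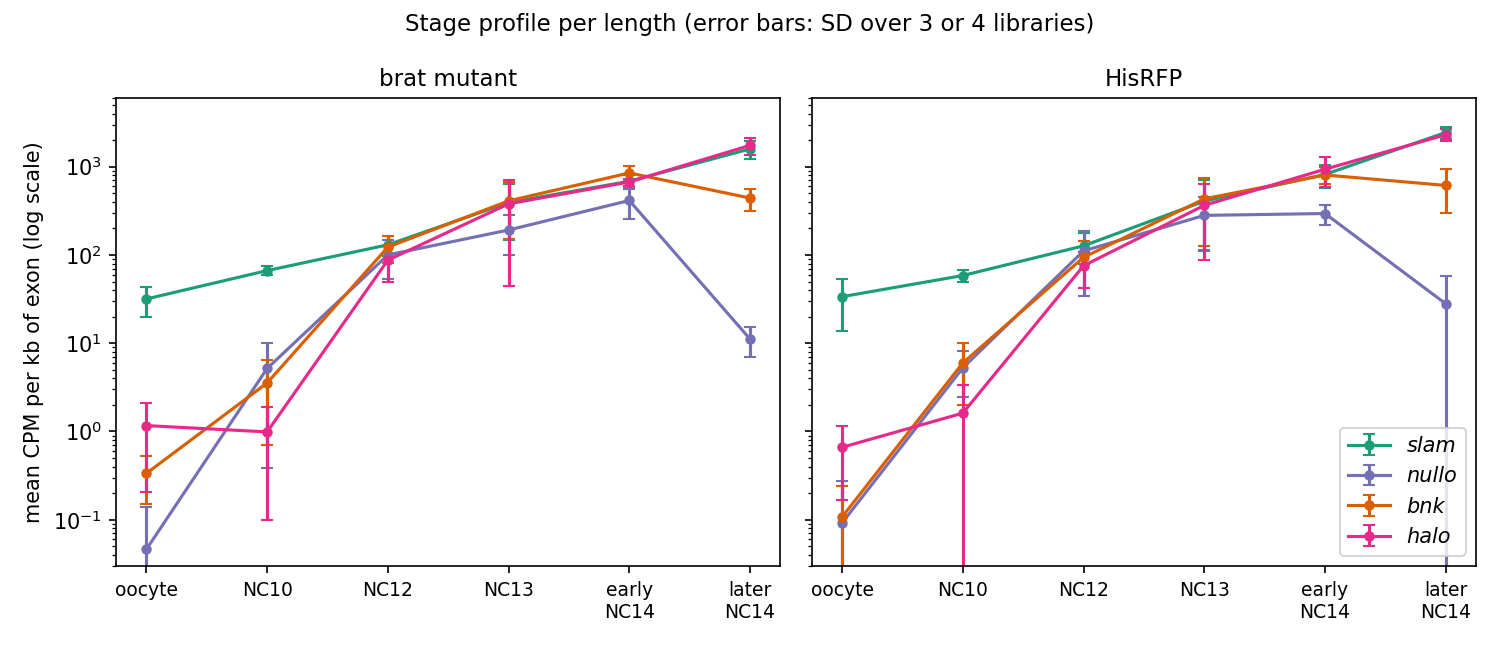
Mean level per length by stage in *brat*-mutant (left) and *HisRFP* (right) samples, in CPM per kilobase of exon on a log scale, with the SD over 3 or 4 libraries as error bars (lower bars that reach 0 run to the axis). The curves meet at NC12 and part by later NC14, where *slam* and *halo* are highest and *nullo* is lowest in both genotypes.

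The question put to the genotypes was whether embryos lacking functional maternal BRAT express these genes early or to a different level. None of the 4 measured genes was called in any of the 11 comparisons between genotypes. In oocytes *slam* alone had the 50 reads needed to be tested, and its log2 fold change in *brat* mutants over *HisRFP* was -0.15 (standard error 0.45, adjusted p = 0.931), where 1.15% of genes were called. At NC10 the log2 fold changes in *brat* mutants were 0.21 (standard error 0.13, adjusted p = 0.476) for *slam*, 0.04 (standard error 0.83, adjusted p = 0.996) for *nullo*, -0.70 (standard error 0.76, adjusted p = 0.759) for *bnk* and -0.61 (standard error 0.95, adjusted p = 0.852) for *halo*, with 3.27% of genes called. In *brat* hets at NC10 they lay between 0.05 and 0.70 (adjusted p of at least 0.746), with 3.44% called. The standard errors of *nullo*, *bnk* and *halo* at NC10, 0.76 to 0.95, were too wide to detect a change of 1 log2 unit.

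At NC12, the log2 fold changes of *brat* mutants over *HisRFP* ran from -0.13 for *nullo* to 0.40 for *bnk*, where 5.64% of genes were called. Those of *brat* mutants over *brat* hets ran from -0.29 for *nullo* to 0.09 for *halo* (1.74% called), and those of *brat* hets over *HisRFP* from 0.03 for *slam* to 0.37 for *bnk* (4.37% called). The adjusted p was at least 0.613 throughout. At NC13 the log2 fold changes in *brat* mutants were -0.11 (standard error 0.58, adjusted p = 0.948) for *slam*, -0.60 (standard error 0.49, adjusted p = 0.596) for *nullo*, -0.13 (standard error 0.59, adjusted p = 0.934) for *bnk* and -0.02 (standard error 0.72, adjusted p = 0.994) for *halo*, with 3.91% of genes called. Without *brat*-mutant embryo A and *HisRFP* embryo C, a choice made after their values were seen, the standard errors were between 0.11 and 0.25, and the log2 fold changes were 0.13 for *slam*, -0.39 for *nullo*, 0.08 for *bnk* and -0.10 for *halo*, none of them called.

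At early NC14, 13.8% of genes were called between *brat* mutants and *HisRFP*, and none of the 4 was among them. *slam* differed by -0.28 (standard error 0.23, adjusted p = 0.410), *nullo* by 0.47 (standard error 0.29, adjusted p = 0.278), *bnk* by 0.05 (standard error 0.21, adjusted p = 0.886) and *halo* by -0.51 (standard error 0.24, adjusted p = 0.156). When each library was left out in turn, the log2 fold change of *halo* ranged from -0.68 to -0.22 (adjusted p of 0.0385 to 0.339). Its lower mean rested in part on *HisRFP* embryo C at 873 CPM, without which the log2 fold change was -0.22. That embryo also had the highest *slam* (4624 CPM) and *bnk* (1050.4 CPM) and the lowest *nullo* (178 CPM) of its group.

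At later NC14 all 4 genes had lower means in *brat*-mutant embryos than in either other genotype, but none passed both thresholds, where 13.7% of genes were called against *HisRFP* and 1.96% against *brat* hets. *slam* averaged 6543 ± 1464 CPM in *brat*-mutant embryos, 8936 ± 2061 CPM in *brat* het embryos and 10054 ± 1582 CPM in *HisRFP* embryos (SD, n = 4 each). The log2 fold change of *slam* came to -0.66 (standard error 0.18, adjusted p = 0.0284) against *HisRFP*, past the threshold on p and under the threshold on fold, and -0.47 (standard error 0.20, adjusted p = 0.233) against *brat* hets. The adjusted p against *HisRFP* ranged from 0.00813 to 0.108 when each library was left out in turn.

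*halo* averaged 1074 ± 230.3 CPM in *brat*-mutant embryos, 1616 ± 261 in *brat* het embryos and 1418 ± 227 in *HisRFP* embryos. This corresponded to -0.44 (standard error 0.18, adjusted p = 0.104) on the log2 scale against *HisRFP* and -0.61 (standard error 0.18, adjusted p = 0.112) against *brat* hets. When each library was left out in turn, the adjusted p of *halo* ranged from 0.0327 to 0.314 against *HisRFP* and from 0.0446 to 0.267 against *brat* hets. *bnk* averaged 454 ± 128 CPM in *brat*-mutant embryos, 811 ± 302 CPM in *brat* het embryos and 630.4 ± 326 CPM in *HisRFP* embryos, a difference of -0.51 (standard error 0.33, adjusted p = 0.287) against *HisRFP* and -0.85 (standard error 0.29, adjusted p = 0.162) against *brat* hets. *nullo* averaged 9.44 ± 3.53 CPM in *brat*-mutant embryos, 29.5 ± 22.4 CPM in *brat* het embryos and 23.7 ± 25.4 CPM in *HisRFP* embryos, a difference of -1.37 (standard error 0.60, adjusted p = 0.127) against *HisRFP* and -1.65 (standard error 0.51, adjusted p = 0.128) against *brat* hets.

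*HisRFP* embryo B carried much of the *nullo* and *bnk* differences. Without it the log2 fold change in *brat* mutants over *HisRFP* was -0.22 for *nullo* and -0.04 for *bnk*, but -0.51 for *slam* and -0.28 for *halo*. Against *brat* hets DESeq2's Wald test called *nullo*, at -1.70 (adjusted p = 0.0133), which edgeR's test did not. Between *brat* hets and *HisRFP* none of the 4 was called at later NC14, with log2 fold changes of -0.13 for *slam*, 0.34 for *nullo*, 0.40 for *bnk* and 0.23 for *halo* (adjusted p of at least 0.393) and 3.71% of genes called. The comparisons with *HisRFP* share the *HisRFP* embryos, and those between *brat* mutants and either control share the *brat*-mutant embryos.

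**Figure D3:**
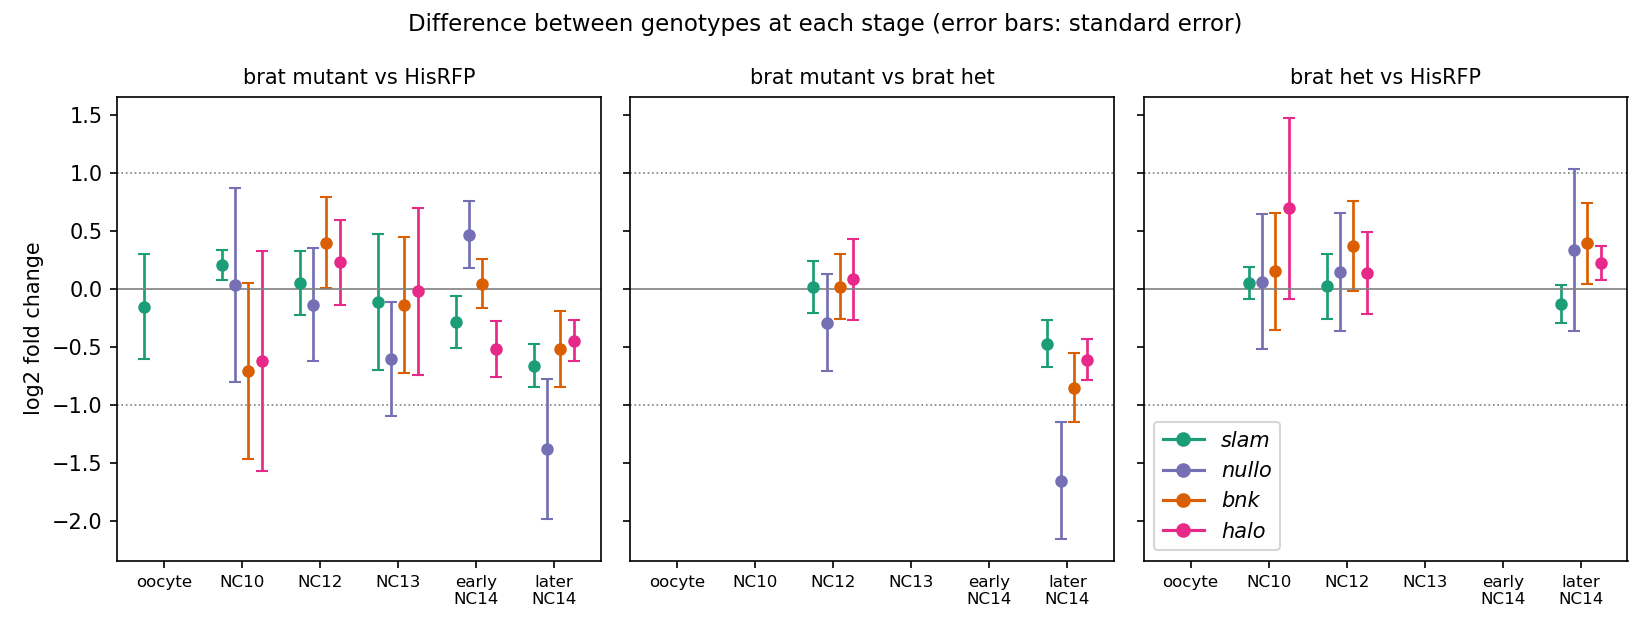
Log2 fold change of each gene between genotypes at each stage, with a standard error derived from the fold change and the F statistic of edgeR's test. Points above 0 are higher in the genotype named first, and dotted lines mark the fold threshold. At later NC14 all 4 points lie below 0 against *HisRFP* and against *brat* hets, with *nullo* lowest and with the widest bars.

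Whether the genotype difference changed between successive stages was tested as an interaction. No measured gene was called in any of these 3 tests. From NC12 to NC13, where 2 genes of 7635 were called (0.0262%), 503 had an unadjusted p under 0.05 and DESeq2 called 78, the change in the difference lay between -0.49 for *bnk* and -0.12 for *slam*. From NC13 to early NC14, where no gene of 8452 was called (0%), 527 had an unadjusted p under 0.05 and DESeq2 called 2, it was 1.11 (standard error 0.58, adjusted p = 0.867) for *nullo* and between -0.46 and 0.22 for the others. From early to later NC14, where 8.86% of genes were called, it was -1.75 (standard error 0.72, adjusted p = 0.119) for *nullo*, -0.46 (standard error 0.42, adjusted p = 0.497) for *bnk*, -0.27 (standard error 0.31, adjusted p = 0.585) for *slam* and 0.17 (standard error 0.31, adjusted p = 0.753) for *halo*. The mean of *nullo* was higher in *brat* mutants at early NC14 and lower at later NC14, and without *HisRFP* later NC14 embryo B the change in its difference was -0.62 (adjusted p = 0.357).

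Embryos of 1 group differed from each other, and an embryo that was high for 1 of the genes tended to be high for others. Over the 38 embryos from NC12 to later NC14, deviations from the group mean on the log2(CPM + 1) scale had a Pearson r of 0.93 between *slam* and *halo*, 0.86 between *slam* and *bnk*, 0.85 between *bnk* and *halo*, 0.72 between *nullo* and *bnk*, 0.58 between *nullo* and *halo* and 0.55 between *nullo* and *slam*. For the summed level of other early zygotic genes, the r was 0.94 with *halo*, 0.87 with *slam*, 0.79 with *bnk* and 0.58 with *nullo*. Over these stages together the co-variation was thus not limited to the cellularization genes. At later NC14 alone the r with that sum was 0.25, 0.09, 0.51 and 0.34 in the same order, beside 0.80 between *slam* and *halo*. At NC13, where 1 embryo of each genotype stood apart, *slam* and *halo* had an r of 0.98. The genes of an embryo share its library, its depth and its exact age, so these values describe the embryos only. In the 8 early NC14 embryos the r with *slam* was 0.89 for *halo* and 0.88 for *bnk* but 0.01 for *nullo*.

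At NC13 1 embryo of each genotype stood apart. *brat*-mutant embryo A and *HisRFP* embryo C had 2760.0 and 3073 CPM of *slam*, while the other 4 NC13 embryos had between 920.0 and 1165 CPM. For the 14 other early zygotic genes the summed level was 1742 CPM in *brat*-mutant embryo A and 1988 CPM in *HisRFP* embryo C, and between 489 and 692 CPM in the other 4. The early NC14 embryos had summed levels of 1511, 1233, 1778 and 1666 CPM in *brat* mutants and 1562, 1155, 2523 and 1681 CPM in *HisRFP*. Both high NC13 embryos thus lay within the range of early NC14 by this measure as well. They also had 171 and 169 CPM of *Sxl*, a sex determination gene, where the other 4 had between 10.6 and 38.7 CPM. Their *msl-2* levels were 25.1 and 24.7 CPM, against 1.78 to 3.09 CPM in the other 4. At later NC14 embryos with at least 1416 CPM of *Sxl* had 131 to 204 CPM of *msl-2*. Those with at most 81.6 CPM of *Sxl* had 357 to 429 CPM. The part of age or sex in the levels of both high NC13 embryos was not tested.

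**Figure D4:**
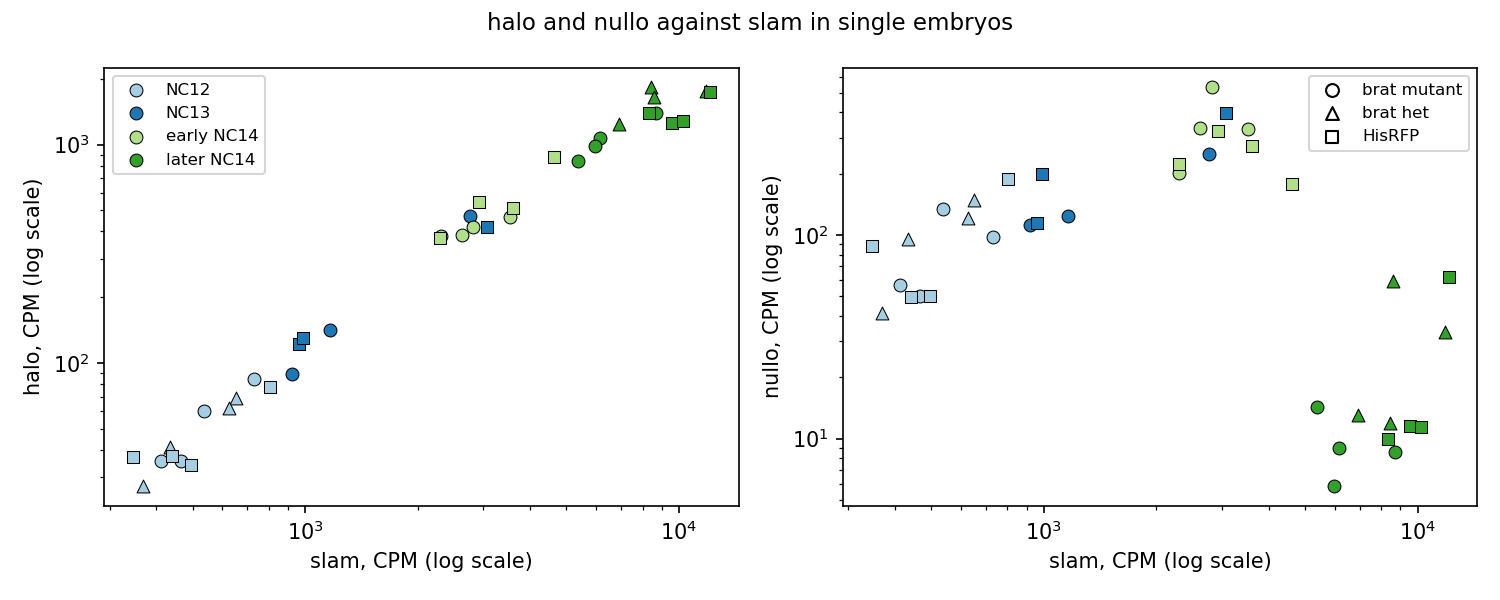
*halo* (left) and *nullo* (right) against *slam* in 38 single embryos, in CPM on log scales, with colours for stages and symbols for genotypes. *halo* and *slam* climb together along a single band, in which 2 NC13 embryos lie among those of early NC14, whereas *nullo* climbs with *slam* up to early NC14 and is low in all 12 later NC14 embryos.

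*nullo* is the only X-linked gene among the 4, and its level relative to *bnk*, which lies on 3R, varied between embryos of a group. At NC12 the ratio of *nullo* to *bnk* CPM was 0.594, 0.526, 0.525 and 1.06 in *brat*-mutant embryos A to D, 0.513, 0.965, 0.994 and 0.766 in *brat* het embryos A to D and 1.07, 1.13, 1.10 and 0.552 in *HisRFP* embryos A to D. Of these 12 embryos, 5 lay between 0.513 and 0.594 and 7 between 0.766 and 1.13, and both ranges held embryos of every genotype. These ranges were drawn after the values were seen, and the part of sex in them was not tested.

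The sex of the embryos is not in the labels, and at later NC14 *Sxl*, which is switched on in female embryos, separated them, with 2094, 2292, 2154 and 81.6 CPM in *brat*-mutant embryos A to D, 48.7, 2242, 66.8 and 1416 CPM in *brat* het embryos and 77.2, 1760.2, 70.9 and 1622 CPM in *HisRFP* embryos. High values stood in 3 *brat*-mutant, 2 *brat* het and 2 *HisRFP* embryos. *HisRFP* embryo B and *brat* het embryos B and D, which had the most *nullo* at this stage, were among those with high *Sxl*, and so were 3 *brat*-mutant embryos with 9.0, 14.3 and 8.59 CPM of *nullo*. The part of sex in the *nullo* values was not tested.

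**Figure D5:**
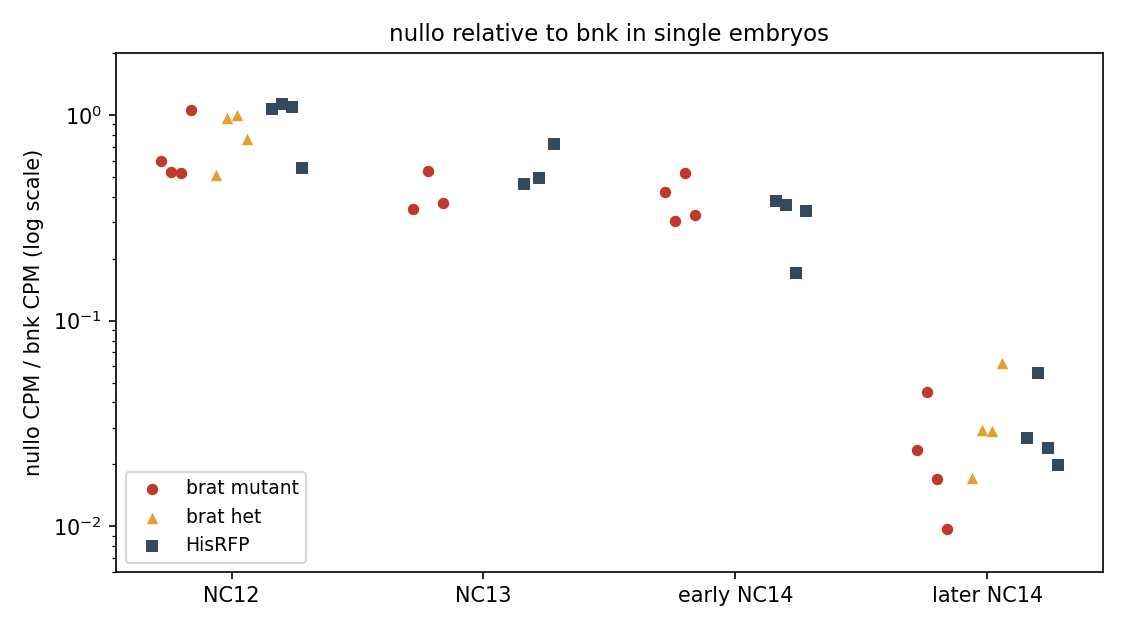
Ratio of *nullo* to *bnk* CPM in single embryos from NC12 to later NC14, on a log scale, by genotype. The highest ratios stand at NC12, where the embryos lie between 0.513 and 1.13, and the lowest at later NC14, where they lie between 0.00967 and 0.0619.

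Genes with the most similar course were found by Pearson r of log2(CPM + 1) over the 62 libraries, among 6677 genes averaging at least 10 CPM in a group. They were *Nrt* (0.98), *Nin* (0.98) and *kuk* (0.98) for *slam*, *CG18269* (0.96), *zen2* (0.96) and *scw* (0.95) for *nullo*, *dunk* (0.99), *CG14014* (0.99) and *CG43184* (0.99) for *bnk* and *term* (0.99), *CG34214* (0.99) and *SNCF* (0.99) for *halo*. Among the members themselves *bnk* and *halo* (r = 0.96) and *slam* and *halo* (0.96) were most alike and *slam* and *nullo* (0.58) least. All libraries of a stage share its level, so these values follow the change over stages. The ranks were also taken over the 38 *brat*-mutant and *HisRFP* embryos from NC10 to later NC14, without *brat* hets, and by Spearman's rho over the 62 libraries. Of these 24 ranks, 11 fell outside the first 3. Over those *brat*-mutant and *HisRFP* embryos *kuk* ranked 21 for *slam* and *dunk* 6 for *bnk*, and the r of *slam* and *nullo* was 0.29.

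Other genes of the same processes were read from lists of textbook genes. Of 19 furrow and cytoskeleton genes, 1 was called higher in *brat* mutants at early NC14, *Patj*, a polarity scaffold, at 1.60 (adjusted p = 0.0184), where 13.8% of all genes tested were called, and none at the other 5 stages, with 13.7% called at later NC14. The list's median log2 fold change was 0.11 at early and 0.17 at later NC14, beside -0.06 and -0.03 over all genes tested. Of 8 lipid droplet transport genes, *Klc*, the kinesin light chain, was called higher at early NC14, at 1.38 (adjusted p = 0.0219), and *Khc*, the kinesin heavy chain, lower at later NC14, at -1.80 (adjusted p = 0.00350), with list medians of 0.33 at early and -0.46 at later NC14.

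Of the 14 other early zygotic genes, 1 was called in *brat* mutants at NC12, *kni*, a gap gene. It was lower than in *brat* hets, at -3.66 (adjusted p = 0.0139), where 1.74% of all genes tested were called. Against *HisRFP* it was lower too, at -4.27 (adjusted p = 0.00793), where 5.64% were called. *kni* at this stage and *bcd* at NC10 were chosen after their values were seen. At early NC14, where 13.8% of genes were called, 1 of the 14 was, *sc*, an X-linked proneural gene, higher in *brat* mutants at 1.61 (adjusted p = 0.0462). At that stage *Sxl* had 144, 11.5, 220 and 289 CPM in *brat*-mutant embryos A to D. In *HisRFP* embryos A to D it had 332, 21.3, 931 and 26.7 CPM. The part of sex or age in the *sc* call was not tested. At later NC14 *sisA*, an X-linked gene of sex determination, and *tld*, a protease of dorsal patterning, were higher, at 1.84 (adjusted p = 0.00519) and 1.26 (adjusted p = 0.00292). *kni* was lower, at -1.85 (adjusted p = 0.0346), and 13.7% of all genes were called. In *brat* hets over *HisRFP* *kni* was also lower, at -1.25 (adjusted p = 0.0152), with 3.71% of genes called. The list median was -0.44 at early and -0.06 at later NC14. *zld*, which encodes the activator of the early zygotic genome, was higher in *brat* mutants at early NC14, at 1.80 (adjusted p = 0.0188), the only call among 3 genome activators. At later NC14 it was not called, at 0.41 (adjusted p = 0.296). Its level at early NC14 was 1942 to 8959 CPM in *brat*-mutant and 948 to 1319.7 CPM in *HisRFP* embryos, without overlap. By RT-qPCR relative to *Act5C*, the authors found *zld* mRNA relatively constant in *brat* mutants. That assay used pools of other embryos, grouped by embryonic stage instead of nuclear cycle, and another control genotype. The 4 cellularization genes had a list median of -0.12 at early NC14. The part of *zld* RNA or protein in their levels was not tested.

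Of 5 maternal egg transcripts, *bcd*, which patterns the anterior, was called higher than in *HisRFP* at NC10 in *brat* mutants, at 3.22 (adjusted p = 0.00273). It was also called higher in *brat* hets, at 2.91 (adjusted p = 0.000679). Over all genes tested, 3.27% were called at that stage in *brat* mutants and 3.44% in *brat* hets. *osk*, which organizes germ plasm, was called higher in *brat* mutants at early NC14, at 1.10 (adjusted p = 0.0359), where 13.8% of genes were called. None of the 5 was called at later NC14, where 13.7% of genes were. Of 8 follicle cell markers, 2 could be tested at later NC14 and both were lower in *brat* mutants, the chorion genes *Cp15* and *Cp18*. The summed follicle markers at that stage were 0.462 to 0.733 CPM in *brat*-mutant embryos, 0.438 to 0.932 CPM in *brat* het embryos and 4.99 to 44.3 CPM in *HisRFP* embryos. In the *brat* het oocytes, where these markers summed to 17569 CPM or more, *nullo* was at most 0.249 CPM, *bnk* at most 0.944 CPM and *halo* at most 2.68 CPM, the last in oocyte B. The part of follicle cells in the members' levels was not tested.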

How the data were processed

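The authors sequenced RNA of single oocytes and embryos, aligned reads to dm6 with HISAT2 2.1.0, discarded reads with several alignments, and deposited raw counts per gene from featureCounts 1.5.3, which as a default ignores strand and drops reads that overlap several genes. The deposited counts are whole reads and were used as given, after matching 99.4% of 17510 gene IDs to symbols in an Ensembl annotation, from which coordinates and exon lengths also come. Members and lists were chosen with earlier results of these data known, and *zip* and *nos* of the lists found no match. CPM used TMM factors over 10445 genes and 62 libraries (4000899 to 41029921 reads each).

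Tests used edgeR 4.0.16 (R 4.3.3), its quasi-likelihood F test and Benjamini-Hochberg adjustment over all genes with at least 50 reads summed over the libraries of a comparison, with calls at an adjusted p below 0.05 and a log2 fold change above 1 or below -1. Standard errors given are the absolute log2 fold change divided by the square root of the F statistic. Only the groups compared entered a fit, without a block, and the script was tested on simulated data. The replicate letters come from the sample names with no stated meaning. Same-lettered libraries met a rule for pairing, every r being over 0.1, in 1 comparison, *HisRFP* NC13 over NC12, with 3 pairs. Whether letters without meaning would also meet this rule was not tested. Alternatives were RLE factors, library totals, DESeq2 1.42.0, other filters, all libraries in 1 fit, the letter as a block and each library left out. Python 3.11.15 with pandas 2.3.3, numpy 2.4.6 and matplotlib 3.10.9 made the summaries and plots.

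Genes named are the 5 members, up to 4 called genes of each list with the largest change at early or later NC14, overlapping or neighbouring genes, *brat* and *zld*, and for each member the 3 genes with the highest r. *Sxl*, *msl-2* and the gene ratios were chosen after values were seen. No sequence was used here, so the motif and protein searches of the plan were not run.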

Additional observations from a re-analysis of the deposited data

Results flagged for a closer look

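Among 51 groups of 4 libraries, counting each measured gene in each group separately and leaving out 5 oocyte groups that averaged at most 3 reads, 4 held a library set apart from the other 3 by more than Dixon's 95% critical value, where chance sets apart about 1 group in 20. *nullo* was 61.8 CPM in *HisRFP* later NC14 embryo B, against 9.97 to 11.6 CPM in the other 3 embryos. *bnk* was 1118 CPM in the same embryo, against 428 to 501 CPM in the other 3. Its *slam* and *halo* levels were 12107 and 1745 CPM, the highest of the group for both genes but not set apart by that value. *halo* was 77.2 CPM in *HisRFP* NC12 embryo C, against 34.2 to 37.4 CPM in the others, and the same embryo had the highest *slam*, *nullo* and *bnk* of its group, at 805, 188 and 171 CPM. *halo* was 2.68 CPM in *brat* het oocyte B, which rests on 34 reads where the other 3 oocytes had 0 to 2 reads.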

How the results depend on the processing

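The 18 comparisons were refitted with RLE factors, with library totals, with DESeq2's Wald test, with edgeR's filterByExpr, with no filter beyond 1 read, with all 62 libraries in 1 fit, with the replicate letter as a block and without each library in turn. No member was called between genotypes in any of them, except *nullo* between *brat* mutants and *brat* hets at later NC14 by DESeq2 (1 member called). For *HisRFP* early NC14 over NC13, where no member was called, 1 was called with all 62 libraries in 1 fit (*slam*) and 3 with the replicate block (*slam*, *bnk* and *halo*). On leaving out 1 library the members called ranged from 0 to 3 in that comparison and from 0 to 4 for NC13 over NC12. The block changed no other call than these and that of *nullo* at NC13 over NC12, and it moved the count of all genes called by over 1.5 times in 5 comparisons, to 233 of 385 for *brat* mutants at NC12, to 7 of 286 at NC13, to 68 of 151 against *brat* hets at later NC14, to 705 where there were 0 for *HisRFP* early NC14 over NC13, and to 0 of 2 for the interaction to NC13. Outside NC13 over NC12 not every same-lettered pair had an r over 0.1 (mean r of -0.28 to 0.26), and the cause was not tested.

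Log2 fold changes near 0 changed sign without passing the threshold. With the block they became -0.26 for *nullo* at NC10, 0.00331 for *nullo* at NC12 and 0.00969 for *slam* at NC13 in *brat* mutants over *HisRFP*, and -0.0234 for *nullo* at NC10 in *brat* hets. Without both high NC13 embryos, a setting added after the data were seen, they became 0.0774 for *bnk* and 0.13 for *slam* at NC13, and 0.0447 for *slam* in the interaction from NC12 to NC13. *halo* at NC13 became 0.0760 with library totals and 0.0553 with all 62 libraries in 1 fit, which also gave -0.00513 for *slam* in *brat* hets at NC12.

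Of 69 log2 fold changes, 29 changed sign when 1 library was left out, at an adjusted p of at least 0.465, and the ranges follow. For *brat* mutants they were -0.41 to 0.32 for *slam* in oocytes, -0.60 to 0.46 for *nullo* and -1.11 to 0.50 for *halo* at NC10, -0.44 to 0.47 for *nullo*, -0.13 to 0.37 for *slam* and -0.0660 to 0.61 for *halo* at NC12, -0.69 to 0.62 for *bnk*, -0.66 to 0.67 for *slam* and -0.94 to 0.81 for *halo* at NC13, and -0.0812 to 0.21 for *bnk* at early NC14. For *brat* hets they were -0.24 to 0.47 for *nullo*, -0.16 to 0.72 for *bnk* and -0.0387 to 0.15 for *slam* at NC10, -0.0660 to 0.77 for *nullo*, -0.11 to 0.35 for *slam* and -0.00589 to 0.53 for *halo* at NC12, and -0.24 to 1.46 for *nullo* at later NC14. Between *brat* mutants and *brat* hets they were -0.22 to 0.18 for *bnk*, -0.16 to 0.13 for *slam* and -0.21 to 0.25 for *halo* at NC12. In *HisRFP* alone the range was -0.26 to 0.62 for *nullo* for early NC14 over NC13. For the interaction they were -1.04 to 0.15 for *nullo*, -1.12 to 0.24 for *bnk*, -0.74 to 0.64 for *slam* and -1.20 to 0.61 for *halo* from NC12 to NC13, -0.49 to 0.73 for *bnk*, -0.87 to 0.38 for *slam* and -1.25 to 0.42 for *halo* from NC13 to early NC14, and -0.11 to 0.33 for *halo* from early NC14 to later NC14.

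Counts over all genes that moved by over 1.5 times were, by DESeq2, 340 in place of 84 for *brat*-mutant oocytes, 641 in place of 286 at NC13, 454 in place of 282 for *brat* hets at later NC14, 182 in place of 120 and 330 in place of 151 for *brat* mutants against *brat* hets at NC12 and later NC14, 395 in place of 0 for *HisRFP* early NC14 over NC13, and 78 in place of 2 and 2 in place of 0 for the interactions to NC13 and to early NC14. With all 62 libraries in 1 fit they were 584 in *brat*-mutant oocytes, 818 at NC13, 338 for *brat* mutants against *brat* hets at later NC14, 1381 for *HisRFP* early NC14 over NC13, and 55 and 22 for the same interactions. filterByExpr gave 134 in oocytes and no filter 489 at NC13. Leaving out both high NC13 embryos gave 783 at NC13, and 28 and 19 for the interactions. Leaving out 1 library moved the count to 42 at the lowest for *brat* mutants at NC13, to between 53 and 147 in oocytes, to 170 for *brat* hets at later NC14, to 91 for *brat* mutants against *brat* hets at later NC14, to 0 in place of 1575 for *HisRFP* NC13 over NC12, to 481 for *HisRFP* early NC14 over NC13, and to between 0 and 23 and between 0 and 26 for the interactions to NC13 and to early NC14. Library totals moved the median of all genes by up to 0.14 on the log2 scale and RLE factors by up to 0.08. Mean *halo* in early NC14 *brat* mutants was 370.0 CPM with library totals in place of 414 CPM. Low counts limit *nullo*, *bnk* and *halo* in oocytes and at NC10, where a library held between 0 and 178 reads of *nullo* or *bnk*, and 3 or 4 embryos a group limit the rest.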
